A study of Arabidopsis thaliana with 6 samples.

Results

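The nuclear genes for enzymes that build chlorophyll from 5-aminolevulinic acid were followed in Arabidopsis seedlings with and without RCB function. The genes were listed by locus, from the dehydratase that joins aminolevulinic acid molecules to chlorophyll synthase, and an enzyme gene was counted as measured where the array has a probe set (several short probes read out as a single signal) that is assigned to that gene alone. No member has a probe set through Supplementary Data 1 of the study alone, and other genes that do are given as a description and kept out of every count, since that list was chosen for change on these arrays. Of the 10 listed genes, 6 have such a probe set: HEMB1 (AT1G69740), HEME1 (AT3G14930), HEME2 (AT2G40490), CHLI2 (AT5G45930), CHLM (AT4G25080) and PORB (AT4G27440). HEMC, HEMD, CHLD and CHLG have no probe set named in the sources used here and are not analysed here. The 6 genes stand among 13356 genes with a probe set of their own.

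Col-0, the wild type, was compared with rcb-10, a T-DNA insertion mutant in the same Col-0 ecotype whose insertion lies in the second intron of RCB and which makes no detectable RCB protein. RCB acts in phytochrome signaling, and rcb mutants grow tall and albino in R light. Whole seedlings of both genotypes, with root, hypocotyl and cotyledon together, were 4 days old, after 4 days of cold stratification in the dark. They grew in continuous R light of 10 μmol per square metre per second on a medium for which the methods list no sucrose. Each genotype gave 3 biological replicates, grown and sampled separately and hybridized to 3 ATH1 arrays. The mutant is represented by this single insertion line.

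Tetrapyrroles are rings that mostly hold a metal, such as chlorophyll and heme, or the linear bilins made from heme, among them the chromophore of phytochrome. In plants the whole pathway to chlorophyll runs in the plastid with enzymes encoded in the nucleus: aminolevulinic acid is joined to porphobilinogen and then to a ring, the ring is oxidized to protoporphyrin IX, and at that point magnesium chelatase directs it to chlorophyll while ferrochelatase directs it to heme. Light is needed for the reduction of protochlorophyllide, so that seedlings in the dark stop there, and phytochrome-interacting factors (PIFs) are known to restrain genes of the pathway. No member is among the PIF direct targets that a table of the study lists.

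The values are linear signals in arbitrary units, scaled by the authors to the same trimmed mean on every array. Their log2 was compared between genotypes with limma over 22746 probe sets. The log2 signals of arrays correlated at 0.945 to 0.953 within a genotype and at 0.919 to 0.928 between genotypes, and 19.5% to 21.7% of probe sets on each array did not exceed 43.8, the background level, taken as the maximum over the trp controls of all 6 arrays. The 6 members were above background on all 6 arrays. In limma, 3853 of all probe sets (16.9%) had an adjusted p under 0.05, of which 2315 (10.2% of those tested) were lower and 1538 (6.76%) higher in rcb-10. Median centring of the arrays shifted the median change of all probe sets by 0.17 on the log2 scale and turned this split to 1493 lower and 2553 higher.

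The largest change among the members was the fall of PORB, which reduces protochlorophyllide to chlorophyllide in the light. PORA and PORC also encode protochlorophyllide oxidoreductases and have no named probe set, so the step as a whole was not measured. PORB signals were 8526, 9625 and 10356 on the Col-0 arrays and 5888, 5471 and 5628 on the rcb-10 arrays. All rcb-10 signals lay below all Col-0 signals, and the lowest Col-0 array was 1.45 times the highest rcb-10 array. The mean went from 9502 ± 921 (SD, n = 3 arrays) to 5662 ± 210 (SD, n = 3). On the log2 scale it fell by 0.74 with a standard error of 0.12 (limma adjusted p = 0.0172). The level in rcb-10 was 0.598 times the wild-type level, with a 95% interval of 0.484 to 0.737. Among all probe sets tested, 13.5% had a change as low or lower. In RNA of whole seedlings, fewer cells that express a gene and less of its RNA per cell cannot be told apart.

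HEMB1, the dehydratase that condenses aminolevulinic acid to porphobilinogen, fell as well. Its signals were 3038, 2760.3 and 3024 in Col-0 and 2049.5, 2166 and 2126 in rcb-10. The rcb-10 arrays stayed close together and all lay below Col-0, with the lowest Col-0 array at 1.27 times the highest rcb-10 array. The mean went from 2941 ± 156 to 2114 ± 59.2 (SD, n = 3 arrays each). HEMB1 thereby fell by 0.48 on the log2 scale, with a standard error of 0.11 (limma adjusted p = 0.0364), to 0.719 times the wild-type level (95% interval 0.599 to 0.864). The pooled SD of its log2 signals over the genotypes, 0.062, was below that of all but 2.18% of probe sets.

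**Figure D1:**
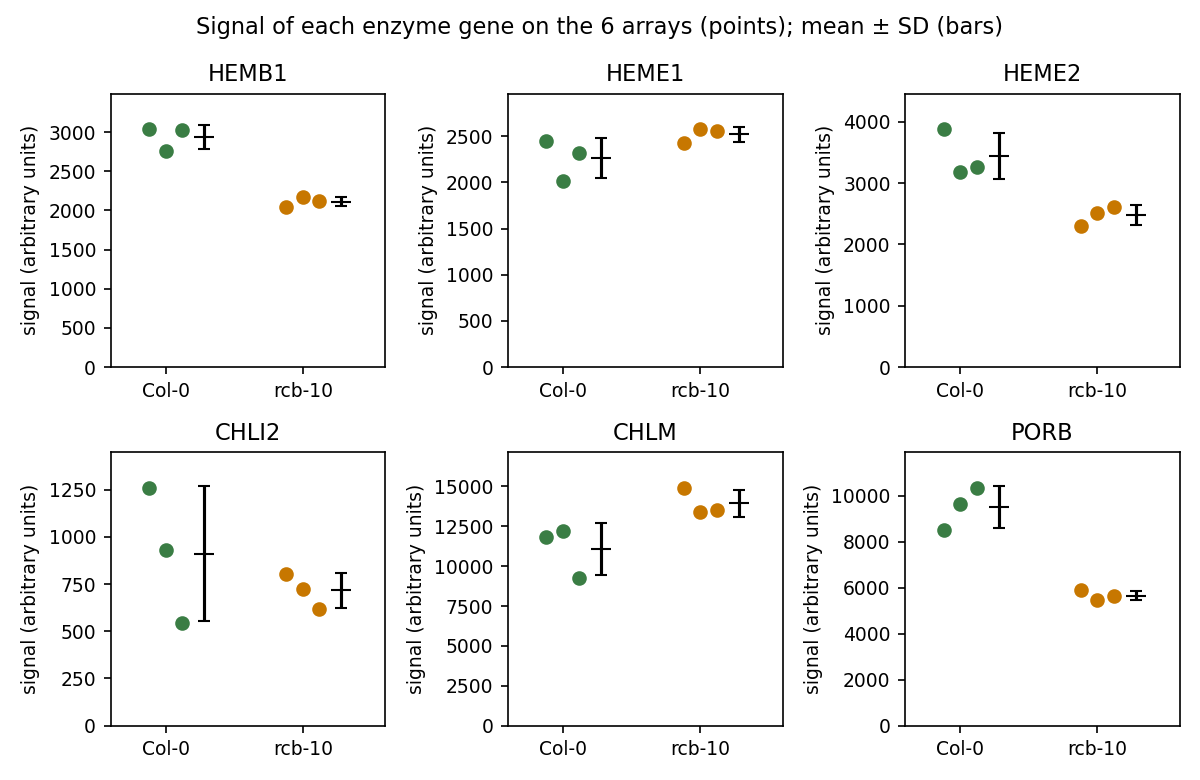
Signals (arbitrary units, linear axes from 0) of the 6 measured enzyme genes on the 3 Col-0 and 3 rcb-10 arrays, 1 point for each array, with mean ± SD (n = 3) beside them. The genotypes do not overlap for HEMB1, HEME2, CHLM and PORB, while the Col-0 arrays of CHLI2 span 543 to 1261.

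Both calls rest on few arrays. HEMB1 missed an adjusted p of 0.05 whichever of the 6 arrays was left out (0.0717 to 0.108), while its log2 change stayed between −0.52 and −0.45. It also missed it with each array centred on its median (adjusted p = 0.108). PORB kept its call when replicate 1 or replicate 3 of Col-0 was left out and missed it without any of the other arrays (0.0390 to 0.0654 over all 6), with log2 changes between −0.82 and −0.68. It kept its call with median centring (adjusted p = 0.0341).

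HEME1 and HEME2 encode the same activity, the uroporphyrinogen III decarboxylase that commits the ring to heme and chlorophyll. Their signals had changes of opposite sign, and neither change passed. HEME2 signals were 3877, 3186 and 3259 in Col-0 and 2298, 2512 and 2612 in rcb-10. All rcb-10 arrays lay below Col-0, with means of 3441 ± 380 and 2474 ± 161 (SD, n = 3 arrays each). The log2 change of −0.47 (standard error 0.13) missed the threshold (limma adjusted p = 0.0637). HEME2 passed under 5 of the 16 alternatives that could change its value or its p, among them quantile normalization of the arrays (adjusted p = 0.0435) and leaving out the dimmest 25% of probe sets (adjusted p = 0.0292), and its adjusted p ranged from 0.0111 to 0.165 over all alternatives.

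HEME1 signals were 2445, 2020 and 2323 in Col-0 and 2428, 2577 and 2559 in rcb-10. The ranges overlapped, since Col-0 replicate 1 exceeded rcb-10 replicate 1. The means were 2262 ± 219 and 2521 ± 81.2 (SD, n = 3 arrays each), and the log2 change of 0.16 (standard error 0.12, limma adjusted p = 0.415) has a 95% interval of 0.907 to 1.38 times the wild-type level. That interval excludes a change of 2-fold in either direction.

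The ratio of HEME1 to HEME2 within an array, set against its mean in Col-0, was 0.958, 0.963 and 1.08 in Col-0 and 1.61, 1.56 and 1.49 in rcb-10. All rcb-10 arrays lay above all Col-0 arrays. The log2 changes of HEME1 and HEME2 differed by 0.63 (standard error 0.066, n = 3 arrays each, exact two-sided permutation p = 0.1). This p is the smallest that 3 arrays against 3 can give. After Benjamini-Hochberg adjustment over the 15 pairs of members, p was 0.214. Such a ratio describes a difference between the signals, and does not tell which of them stayed level.

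Of magnesium chelatase, which inserts magnesium into protoporphyrin IX, only the subunit gene CHLI2 was measured. CHLI2 is a close copy of CHLI1, which has no named probe set. CHLI2 signals were 1261, 930.3 and 543 in Col-0 and 804, 726 and 620.5 in rcb-10. The Col-0 arrays enclosed all rcb-10 arrays, and the highest Col-0 array was 2.32 times the lowest. The log2 change was −0.27 (standard error 0.33, limma adjusted p = 0.614), with a 95% interval of 0.472 to 1.45 times the wild-type level, so that a 2-fold fall is not excluded. Without Col-0 replicate 1 the log2 change was 0.003, and without Col-0 replicate 3 it was −0.60 (adjusted p = 0.136).

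CHLM, the methyltransferase that acts on magnesium protoporphyrin IX directly after the chelatase, had the largest positive change among the members, one that did not pass. Its signals were 11796, 12223 and 9232 in Col-0 and 14918, 13386 and 13522 in rcb-10. All rcb-10 arrays lay above all Col-0 arrays. The means were 11084 ± 1618 and 13942 ± 848 (SD, n = 3 arrays each), and the log2 change of 0.34 (standard error 0.15) missed the threshold (limma adjusted p = 0.183). Its 95% interval runs from 0.977 to 1.64 times the wild-type level. CHLM did not pass under any alternative tried (adjusted p from 0.0527 to 0.719). After quantile normalization its log2 change was 0.09, below that of HEME1 (0.12), and the arrays of CHLM overlapped.

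The ratio of CHLM to PORB within an array, set against its mean in Col-0, was 1.19, 1.09 and 0.768 in Col-0 and 2.18, 2.11 and 2.07 in rcb-10. The rcb-10 arrays were close to each other and all lay above Col-0. The log2 changes of CHLM and PORB differed by 1.08 (standard error 0.20, n = 3 arrays each, exact two-sided permutation p = 0.1). It was the largest difference between any members with the values as deposited.

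**Figure D2:**
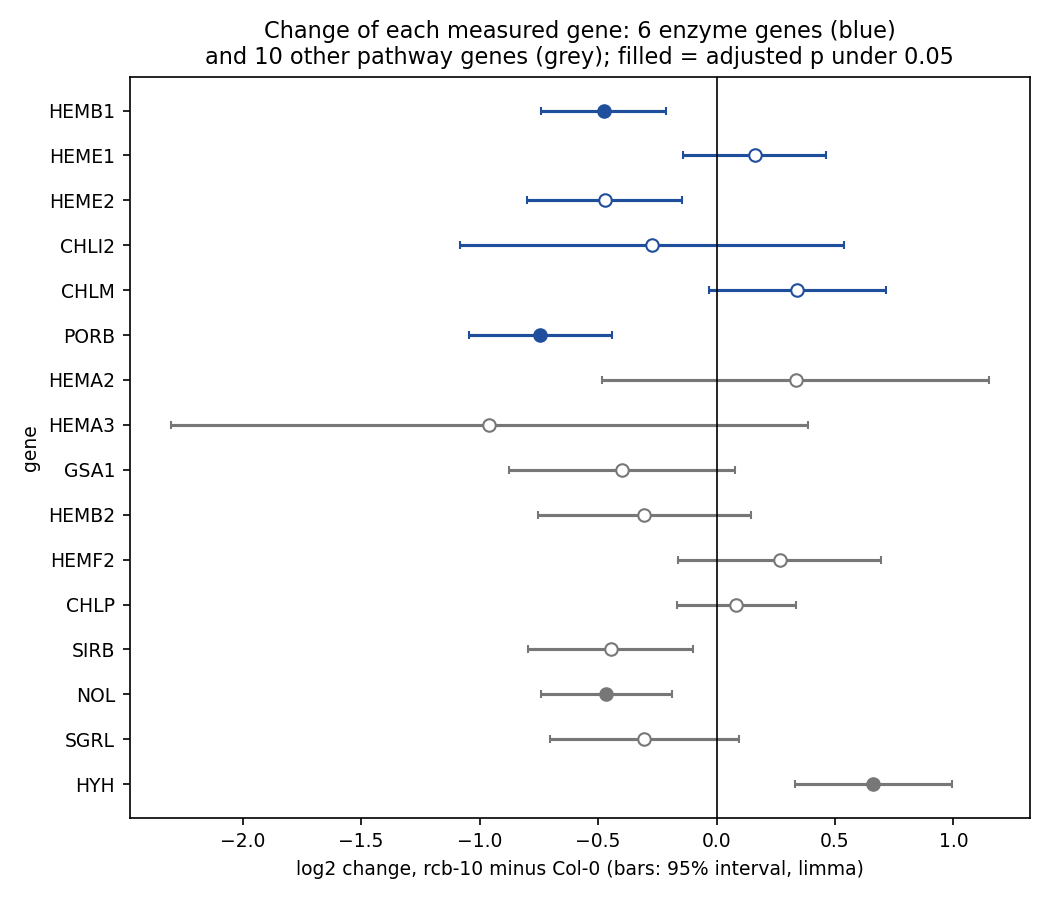
Log2 change of signal, rcb-10 minus Col-0 (x axis), for the 6 measured enzyme genes in pathway order (blue) and 10 other measured genes of the pathway and its regulation (grey), with 95% intervals from limma over 3 arrays for each genotype. Filled points, those of HEMB1, PORB, NOL and HYH, passed an adjusted p under 0.05.

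Of the 6 measured members, 2 were lower in rcb-10 at an adjusted p under 0.05, none was higher and 4 did not pass. At this threshold 16.9% of all probe sets were called, 10.2% as lower and 6.76% as higher. At an unadjusted p under 0.05 there were 3 members, HEME2 being the third, against 33.3% of all probe sets. With 6 genes, nothing particular to the members is read from these counts. None reached a fold of 2, the threshold of the methods, in limma or in the methods' t-test, whereas 7.22% of all probe sets passed that threshold in limma. The arrays of the genotypes did not overlap for 4 members, HEMB1, HEME2 and PORB below and CHLM above Col-0, against 40.6% of all probe sets (23.1% below and 17.4% above).

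The median log2 change of the 6 members was −0.37, and that of all probe sets was −0.04. The change was below 0 for 4 of the 6 members and for 53.2% of all probe sets. On each array the median of the members was set against their Col-0 means: it was 0.11, −0.03 and −0.02 on the Col-0 arrays and −0.31, −0.34 and −0.43 on the rcb-10 arrays, while the median of all probe sets lay between −0.05 and 0.03 on the 6 arrays. As deposited, the same 4 members lay below their Col-0 means on all 3 rcb-10 arrays. With median centring CHLI2 lay above its Col-0 mean on rcb-10 replicate 1, by 0.09. The members' median depended on the scaling and on single arrays. It was −0.20 with median centring, −0.19 without Col-0 replicate 1 and −0.48 without Col-0 replicate 3.

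**Figure D3:**
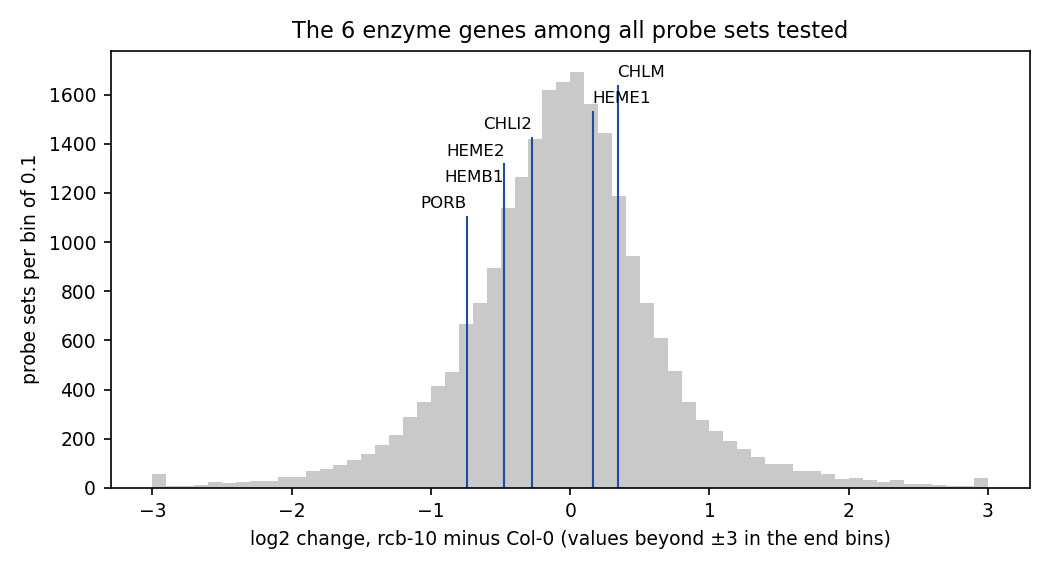
Number of probe sets (y axis) by log2 change, rcb-10 minus Col-0 (x axis, bins of 0.1), for all 22746 probe sets tested, with the 6 enzyme genes marked by blue lines. The members run from PORB at −0.74 to CHLM at 0.34 and lie within the bulk of the distribution.

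Ordered from the lowest change upward, the members as deposited were PORB, HEMB1, HEME2, CHLI2, HEME1 and CHLM. After quantile normalization HEME2 (−0.54) lay below HEMB1 (−0.53), and HEME1 (0.12) lay above CHLM (0.09). Changes as deposited were compared in all 15 pairs by the log2 ratio within each array. Exact two-sided permutation tests over the 6 arrays were used. In 7 pairs the ratios of the genotypes did not overlap, and each of these had the smallest possible p of 0.1 (0.214 after Benjamini-Hochberg adjustment over the 15 pairs). These 7 pairs were CHLM against PORB, HEMB1, HEME2 and CHLI2, and HEME1 against PORB, HEMB1 and HEME2. All of them hold CHLM or HEME1, so they are not 7 separate results. The share of such pairs among all probe sets was not computed. Of single probe sets, 40.6% did not overlap, so nothing particular to the members is read from this count. HEMB1 and HEME2 had nearly equal changes, with a difference of −0.003 (standard error 0.081, n = 3 arrays each, exact permutation p = 0.9). For neighbours in the order, the ratios of the genotypes overlapped in every pair. PORB and HEMB1 differed by 0.27 (standard error 0.11, exact permutation p = 0.2, n = 3 arrays each), with overlapping ratios.

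The direction of each member was the same under 3 scalings of the arrays. PORB went from −0.74 as deposited to −0.57 with median centring and −0.93 after quantile normalization, and passed in each (adjusted p = 0.0130 in the last). HEMB1 was −0.48, −0.30 and −0.53, and passed as deposited and after quantile normalization (adjusted p = 0.0295). CHLM and HEME1 had positive changes throughout, up to 0.51 (adjusted p = 0.0701) and 0.33 (adjusted p = 0.122) with median centring.

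**Figure D4:**
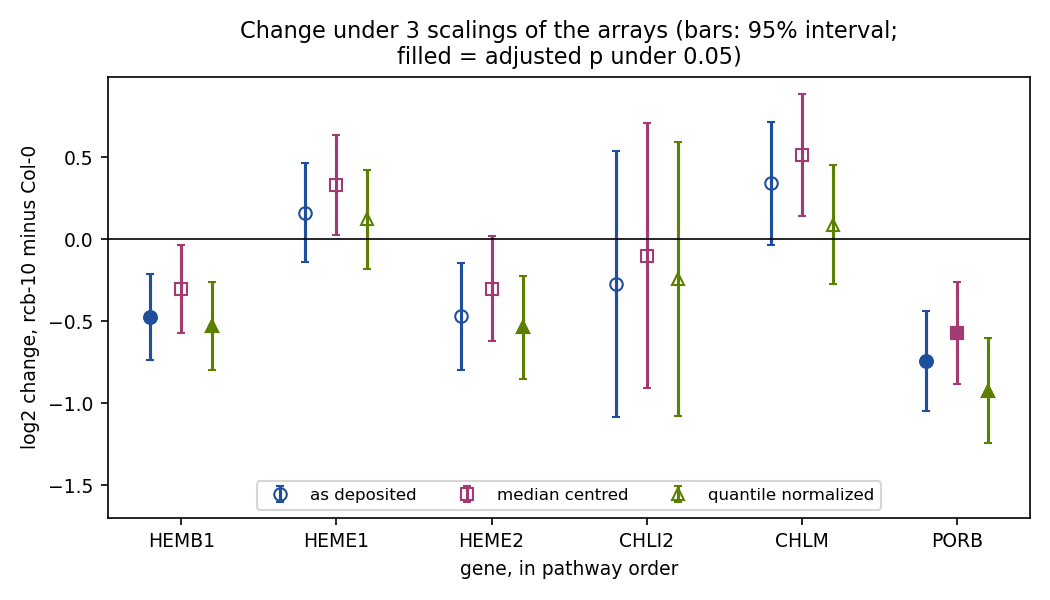
Log2 change, rcb-10 minus Col-0 (y axis), of the 6 enzyme genes in pathway order under the scaling as deposited (circles), median centring (squares) and quantile normalization (triangles), with 95% intervals from limma. PORB is filled, that is called, under all 3, and HEMB1 under 2, while median centring lies highest for every gene.

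Other genes of tetrapyrrole metabolism and its regulation were taken from 8 lists of 56 genes in all, of which 10 have a probe set of their own. Of these 10, 1 was lower, 1 was higher and 8 did not pass in limma. Among all probe sets 10.2% were lower and 6.76% higher, so nothing particular to the 10 genes is read from this count. Their median log2 change was −0.30, against −0.04 for all probe sets. It includes HEMA3 and HEMB2, whose signals are limited by background. The 2 middle values were those of SGRL (−0.31) and HEMB2 (−0.30), which were −0.14 and −0.13 with median centring.

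Upstream of the members, 3 of 6 genes for the supply of aminolevulinic acid were measured, and none passed. HEMA2, a glutamyl-tRNA reductase gene, had Col-0 signals spread from 156 to 378, around rcb-10 signals of 299 to 338 (log2 change 0.33, adjusted p = 0.532). GSA1, a glutamate-1-semialdehyde aminotransferase gene, had signals of 1415, 1049 and 1451 in Col-0 and 973, 841 and 1144 in rcb-10, which overlap (log2 change −0.40, standard error 0.19, adjusted p = 0.214). HEMA3 was above background on 1 of 3 arrays of each genotype, so that no fold is given. HEMA1, the glutamyl-tRNA reductase gene of green tissue, was not analysed here for want of a named probe set.

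Of the other shared steps to protoporphyrin IX, 2 of 5 genes were measured and neither passed. HEMB2, a second dehydratase gene beside HEMB1, had signals of 65.2, 74.0 and 76.0 in Col-0 and 49.2, 72.7 and 54.5 in rcb-10, close to background and overlapping (adjusted p = 0.304). HEMF2, a coproporphyrinogen oxidase gene, had a change of 0.27 in log2 signal (standard error 0.17, adjusted p = 0.340), with overlapping arrays.

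In the chlorophyll branch, CHLP, the geranylgeranyl reductase that supplies the phytol tail, was the 1 of 10 further genes measured. Its signals were 15533, 15224 and 14639 in Col-0 and 15586, 16138 and 16387 in rcb-10. The rcb-10 arrays lay just above Col-0, with a change of 0.08 in log2 signal (standard error 0.10, adjusted p = 0.617) and a 95% interval of 0.890 to 1.26 times the wild-type level. After quantile normalization the sign turned (−0.14). Neither the 7 genes of the heme and bilin branch nor the 2 post-translational regulators FLU and GBP have a named probe set.

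The siroheme branch leaves the pathway at uroporphyrinogen III, the substrate of HEME1 and HEME2. SIRB, its ferrochelatase, had signals of 907, 806 and 748 in Col-0 and 676, 551 and 582 in rcb-10, without overlap (log2 change −0.45, standard error 0.14, adjusted p = 0.0855). It passed under 2 of the alternatives, without the dimmest 25% of probe sets (adjusted p = 0.0424) and with a variance trend and robust variances (0.0248). UPM1, the methyltransferase that opens the branch, is named through Supplementary Data 1 alone, which lists genes for their change on these arrays. Its mean signal was 1975 ± 84.5 in Col-0 and 418 ± 27.5 in rcb-10 (SD, n = 3 arrays each), which is given as a description (log2 change −2.24).

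Among 12 genes of chlorophyll turnover, 2 were measured. NOL, a chlorophyll b reductase subunit that starts the conversion of chlorophyll b back to chlorophyll a, had signals of 765, 684 and 731 in Col-0 and 499, 530.2 and 550.5 in rcb-10. Like HEMB1, it was lower on all rcb-10 arrays, and it fell by 0.46 in log2 signal with a standard error of 0.11 (limma adjusted p = 0.0431). NOL missed the threshold whichever array was left out (0.0823 to 0.123) and with median centring (0.124). SGRL, a STAY-GREEN-like gene, had signals of 3181 to 4527 in Col-0 and 3073 to 3198 in rcb-10, which overlap, and did not pass (log2 change −0.31 with a standard error of 0.16). CLH1, a chlorophyllase gene named through Supplementary Data 1 alone and so chosen for its change, had means of 511 ± 168 in Col-0 and 147 ± 41.0 in rcb-10 (SD, n = 3 arrays each), with a log2 change of −1.78.

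Of 12 transcriptional regulators known to act on these genes or on greening, 1 was measured. HYH, a bZIP factor related to HY5, had signals of 514, 427 and 424 in Col-0 and 662, 734 and 758 in rcb-10. It rose to 1.58 times the wild-type level (95% interval 1.26 to 1.99, log2 change 0.66, standard error 0.13, adjusted p = 0.0279). HYH kept its call without Col-0 replicate 1 (adjusted p = 0.0468) and in none of the other refits without an array (up to 0.0927). GLK1, a GOLDEN2-LIKE factor of chloroplast genes named through Supplementary Data 1 alone, had a mean signal of 1111 in Col-0 and 368 in rcb-10, with a log2 change of −1.59 (standard error 0.13, n = 3 arrays each), and was likewise chosen for it.

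Markers of the tissues in a whole seedling were checked beside these values. SBPASE, a Calvin cycle enzyme gene and the 1 of 5 cotyledon markers measured, had a signal of 5994 to 7904 in Col-0 and 5820 to 7824 in rcb-10 (log2 change 0.04, standard error 0.18, adjusted p = 0.896). As a single gene of photosynthesis, SBPASE does not give the share of cotyledon tissue in an albino mutant. Of 6 root markers, the root hair expansin genes EXPA7 and EXPA18 were measured, and both fell (log2 change −1.06 and −1.50, adjusted p = 0.0328 and 0.00433). Their summed signal was 297 to 402 in Col-0 and 133 to 160.2 in rcb-10, and both were above background on all arrays. In rcb-10, however, EXPA18 signals of 60.2, 63.5 and 59.8 lay close to the background of 43.8. EXPA7 signals in rcb-10 were 100, 69.7 and 88.3. TIP2;3, a root aquaporin gene named through Supplementary Data 1 alone, had a log2 change of −1.09. The guard cell regulator FAMA, 1 of 4 vascular and epidermal markers, had a log2 change of −0.20 (adjusted p = 0.382), and no seed reserve marker has a named probe set. The part of the root markers in the fall of PORB, HEMB1 and NOL was not tested.

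The probe sets whose pattern over the 6 arrays was most like that of PORB and HEMB1 were sought among 13512 others assigned to a single gene. The measure was the root mean square distance of log2 signals, each probe set centred on its own mean. Nearest to PORB were AT3G53680 (distance 0.043), PTI1-4, a protein kinase gene (0.050), and AT1G15260 (0.050), with log2 changes of −0.75, −0.80 and −0.67. Nearest to HEMB1 were AT1G19240 (0.015), AT1G08360 (0.019) and AT5G03030 (0.023), with log2 changes of −0.45, −0.44 and −0.49. None of the 6 belongs to the lists above, and with 6 arrays the likeness is a description that largely follows the difference between genotypes.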

How the data were processed

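Probe set signals of 6 ATH1 arrays were used, 3 of Col-0 and 3 of rcb-10. The deposited values are linear intensities, which the authors had scaled, as the values show, so that every array has the same mean once 2% of probe sets are trimmed at each end. The methods and the processing notes name GeneSpring GX and RMA, whose values lie on a log scale, so that the step behind these intensities is unknown. Their log2 was compared with limma 3.58.1 in R 4.3.3, without further normalization or filter, and p-values were adjusted over 22746 probe sets with the method of Benjamini and Hochberg. The 64 control probe sets were left out. Where a gene has several probe sets of its own, the brightest by mean log2 signal was to be used, and each member has 1. Names came from a probe table matched through gene identifiers of the TAIR10.1 annotation.

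The members and gene lists were chosen with earlier results of these data known. Every member was named, as was every other listed gene with an adjusted p under 0.05 and, in lists without such a gene, that with the largest change; further measured genes are given for completeness and were chosen after their values were seen. Precision is limited by the number of arrays. With 3 arrays against 3, the smallest exact p is 0.1. On simulated arrays limma recovered 46 of 100 probe sets changed 3-fold and 62 of 100 changed 6-fold among 22746. The simulation changed 200 probe sets, whereas 3853 were called on the measured arrays. In the data the median pooled SD of log2 signal was 0.12 for the members and 0.24 for all probe sets. The simulated shares are therefore not read as the share of changes that would be found among the members. As alternatives, the arrays were normalized by quantiles or centred on their medians, low signals were raised to background, removed (the dimmest 25%) or given a pseudocount of 32, single-gene probe sets were tested alone or averaged by gene, variances were modelled with a trend and robustly, arrays were weighted or left out in turn, a block by replicate number was added, and the methods' t-test was run. Promoter motifs had been planned and were not analysed here. Plots were drawn with matplotlib 3.10.9 in Python 3.11.15.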

Additional observations from a re-analysis of the deposited data

How the results depend on the processing

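Of 17 alternatives, 7 leave a member's log2 change as it is by construction, and averaging by gene leaves its p as well, since each member has 1 probe set. None of the other 10 changed the direction of HEMB1, HEME1, HEME2, CHLM or PORB. Of the 16 that could change a p, PORB passed in 11 and HEMB1 in 7. The sign turned for CHLI2 without Col-0 replicate 1 (0.0032, against −0.60 without Col-0 replicate 3), HEMA2 without Col-0 replicate 3 (−0.0025, against 0.63 without Col-0 replicate 1), CHLP after quantile normalization (−0.14) and HEMA3 with low signals raised to background (0.012), none of which passed. The 2 members and 2 other pathway genes called became 1 and 1 with median centring, with which the members' median was −0.20, and 1 and 1 with single-gene probe sets alone, where 1663 of 13513 probe sets passed, 796 of them 2-fold. The other pathway genes called were also 1 after quantile normalization. The counts rose to 3 members after quantile normalization, with low signals raised to background and with the pseudocount, and to 3 members and 3 other pathway genes without the dimmest 25% and with a variance trend and robust variances, where 5951 probe sets passed. With the replicate number as a block, limma called 0 members, 0 other pathway genes, 0 probe sets and 0 at 2-fold. Without the block, 3853 probe sets passed, 1642 of them at 2-fold. At an unadjusted p under 0.05 the block gave 3 members, 4 other pathway genes and 6823 probe sets. The labels do not say whether equal numbers pair the samples. Arrays of the same number deviated from their genotype means with correlations of 0.027, −0.019 and 0.020, and 2 of 6 correlated best with their own number. With 3 arrays per genotype these values cannot decide whether the samples were paired, so the result with the block is not set aside. The methods' t-test called 2 members and 2 other pathway genes, 3187 probe sets in all. Leaving out 1 array gave 0 to 1 members (3 to 4 at an unadjusted p under 0.05), 0 to 1 other pathway genes (2 to 4), 1256 to 2224 probe sets and 1068 to 1422 at 2-fold, and a median of the members between −0.48 and −0.19. The signals of HEMA3 and HEMB2 are limited by background.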
